A study of Mus musculus with 62 samples.

Results

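To determine how the diaphragm differs between mice with a cachexia-inducing and a non-inducing melanoma at 4 weeks post implantation, RNA-seq profiles of 10 diaphragm muscles were compared, 5 from mice with the cachectic melanoma xenograft and 5 from mice with the non-cachectic melanoma xenograft. They are 10 of 62 libraries in the series, chosen by their labels for tumor and week, and the 5 mock injected control mice of the same week are given beside them. The labels describe female mice with an age of 2 months, and the tumor cells were placed in the flank. The strain is C57BL/6J in the sample labels but NCI Ath/nude, an immunodeficient mouse that lacks a thymus, in the design text of the series. Each tumor group carries a xenograft from a single patient-derived melanoma, so the difference between the groups is that between 1 pair of tumors, and each library stands for 1 mouse. Whether the mice came from separate litters or cages is not given, so the p-values below measure the spread between mice. Unless stated otherwise, that spread was estimated for each gene within the 12 groups of all 62 mice.

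Cachexia is the loss of muscle and fat that accompanies many cancers, and in the diaphragm, the main muscle of breathing, it impairs respiration. Cytokines of the interleukin-6 family bind receptors that share the gp130 chain, activate JAK kinases and the transcription factor STAT3, and induce early target genes, among them Socs3, whose product shuts the same receptors down. Muscle fibers that waste also raise the ubiquitin ligases atrogin-1 (Fbxo32) and MuRF1 (Trim63), the lysosomal and proteasomal machinery and, under glucocorticoids, a further set of target genes.

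No library of 4 weeks stood apart in the number of genes listed. Among the 15 libraries of 4 weeks, 17989 to 18695 genes were above 0, and the share of TPM (transcript abundance, the reads of a gene divided by its length and scaled so that every library has the same sum) in the 37 mitochondrial genes ran between 39.6% and 48.2%. The mitochondrial share was 39.6% to 45.6% in the cachectic, 44.3% to 48.2% in the non-cachectic and 43.8% to 48.2% in the control mice. The 10 defining genes of skeletal muscle summed to 65640 TPM or more in every tumor-bearing mouse. T cell genes were low, with 3 of 10 markers high enough to be tested and sums from 2.71 to 3.91 TPM. Of the 62 libraries, 4 of other weeks listed far fewer genes (at most 16389), of which 3 come from tumor-bearing mice of 2 weeks (replicates 3 and 4 cachectic, replicate 5 non-cachectic) and the other from cachectic replicate 3 of 8 weeks. They entered the estimate of each gene's spread but not the means at 4 weeks.

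At 4 weeks, 4 genes rose in cachectic versus non-cachectic mice and 0 fell. These were Apod, Socs3, Tmem176b and 4930512H18Rik, out of 13578 genes that reached 1 TPM in 5 or more libraries. Calling a gene required an adjusted p below 0.05, from limma with the Benjamini-Hochberg method across every gene tested, together with a log2 fold change beyond 1 in either direction on the log2(TPM + 1) scale. The share called was 0.0295%. At an unadjusted p under 0.01 with the same fold, 42 genes passed (0.309%), 33 of them higher and 9 lower, and at an unadjusted p under 0.05 alone 502 genes were higher (3.7%) and 195 lower (1.44%). The values of the 5 cachectic mice were all above those of the 5 non-cachectic mice for 750 genes (5.52%) and all below for 123 (0.906%). Of all genes, 65.9% had a positive log2 fold change and 34.1% a negative one, and the median was 0.064. With median-ratio scaling the median was -0.0007, but that scaling equalizes the median gene between libraries, so this value follows from the method. The part of the lower mitochondrial share of cachectic mice in the excess of positive genes was not tested.

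The number of calls depended on the 4 sparse libraries of other weeks. Without them, the fold changes at 4 weeks were the same, the standard error of the median gene was 0.68 times as large, and 35 genes were called, 28 higher and 7 lower. These 35 held all 4 genes above and 34 of the 42 genes of the looser rule. Both fits use the same values of 4 weeks, so this overlap is no independent support for that rule. Cebpd, Mt1, Chac1 and Tfrc were among the genes of the rule that were not called without the sparse libraries. The genes of the rule are described in detail here, with the adjusted p over all 62 mice. For some of the genes called without those 4 libraries, the adjusted p of that fit is also given. A fit of the 15 mice of 4 weeks alone called 32 genes, 26 higher and 6 lower.

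**Figure D1:**
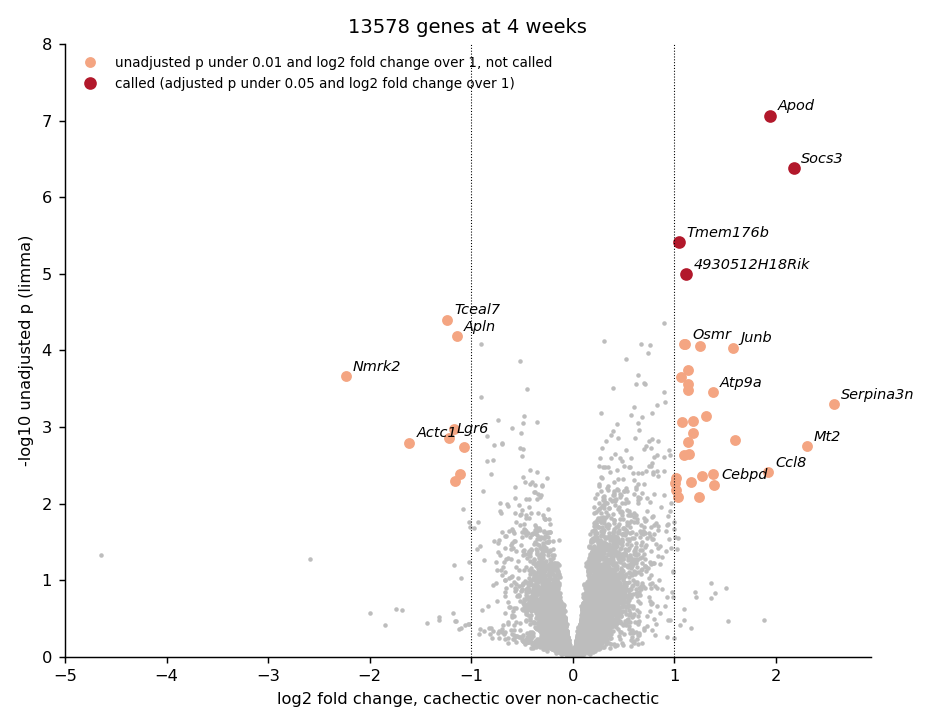
Each of the 13578 genes tested at 4 weeks is a point, with its log2 fold change (cachectic over non-cachectic, 5 mice each) on the x axis and -log10 of its unadjusted limma p on the y axis, and dotted lines mark a log2 fold change of 1 in either direction. The 4 called genes (red) stand at the upper right, and the other genes of the looser rule (orange) lie mostly on the right, 33 of all 42 being higher.

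Apod encodes apolipoprotein D, a secreted lipid-binding protein of the lipocalin family (GRCm38, chr16:31296192-31314808, minus strand). Its TPM was 38.4, 155, 34.5, 69.2 and 37.3 in the cachectic mice, 11.96, 10.2, 19.5, 13.1 and 15.4 in the non-cachectic mice and 18.4, 12.5, 19.2, 14.9 and 19.1 in the controls. Every cachectic mouse lay above every other mouse of that week, and replicate 2 was more than 100 TPM above 3 of its group. The mean was 67.0 ± 51.5 against 14.0 ± 3.58 TPM (SD, n = 5 each), a 4.77-fold ratio of means. The log2 fold change was 1.95 (SE 0.314, adjusted p = 0.00118), and without replicate 2 of the cachectic mice it was 1.58.

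Socs3, the feedback inhibitor of gp130 receptors (chr11:117966079-117970047, minus strand), did not overlap between the groups either. It was at 17.0, 36.6, 32.2, 28.8 and 25.7 TPM in the cachectic mice, 5.48, 4.49, 6.95, 4.14 and 5.51 in the non-cachectic mice and 5.49, 6.14, 5.91, 5.16 and 4.02 in the controls. The lowest cachectic mouse was above the highest of the other 10 mice. The mean was 28.1 ± 7.39 against 5.31 ± 1.10 TPM, and the log2 fold change was 2.18 (SE 0.377, adjusted p = 0.00284).

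Tmem176b (chr6:48833818-48841496, minus strand), a membrane protein gene best known from dendritic cells, was at 36.3, 61.4, 36.7, 43.8 and 38.9 TPM in the cachectic mice, 21.96, 23.0, 21.4, 14.3 and 20.9 in the non-cachectic mice and 26.2, 18.6, 25.0, 18.8 and 28.7 in the controls. The groups did not overlap. The log2 fold change was 1.05 (SE 0.204, adjusted p = 0.0174), and it fell under the fold threshold, at 0.97, with median-ratio scaling or quantile normalization. Its neighbor Tmem176a lies on the opposite strand and overlaps it, and had a log2 fold change of 0.90 that did not pass the adjusted test (unadjusted p = 0.000351 by limma). The use of strand in counting is not stated, so reads of this pair cannot be told apart.

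4930512H18Rik is an RNA annotated as antisense to Palld (chr8:61849006-61922834, plus strand) and was expressed at a low level. It was at 2.30, 2.41, 3.21, 2.06 and 1.72 TPM in the cachectic mice, 0.758, 0.425, 0.705, 0.270 and 0.493 in the non-cachectic mice and 0.663, 0.458, 0.868, 0.513 and 0.364 in the controls, again without overlap. The log2 fold change was 1.12 (SE 0.23, adjusted p = 0.0341). Leaving out any of 8 of the 10 mice raised its adjusted p to between 0.0534 and 0.166. As with Tmem176b, with strand not stated its reads cannot be told apart from those of Palld, for which the log2 fold change was -0.039.

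**Figure D2:**
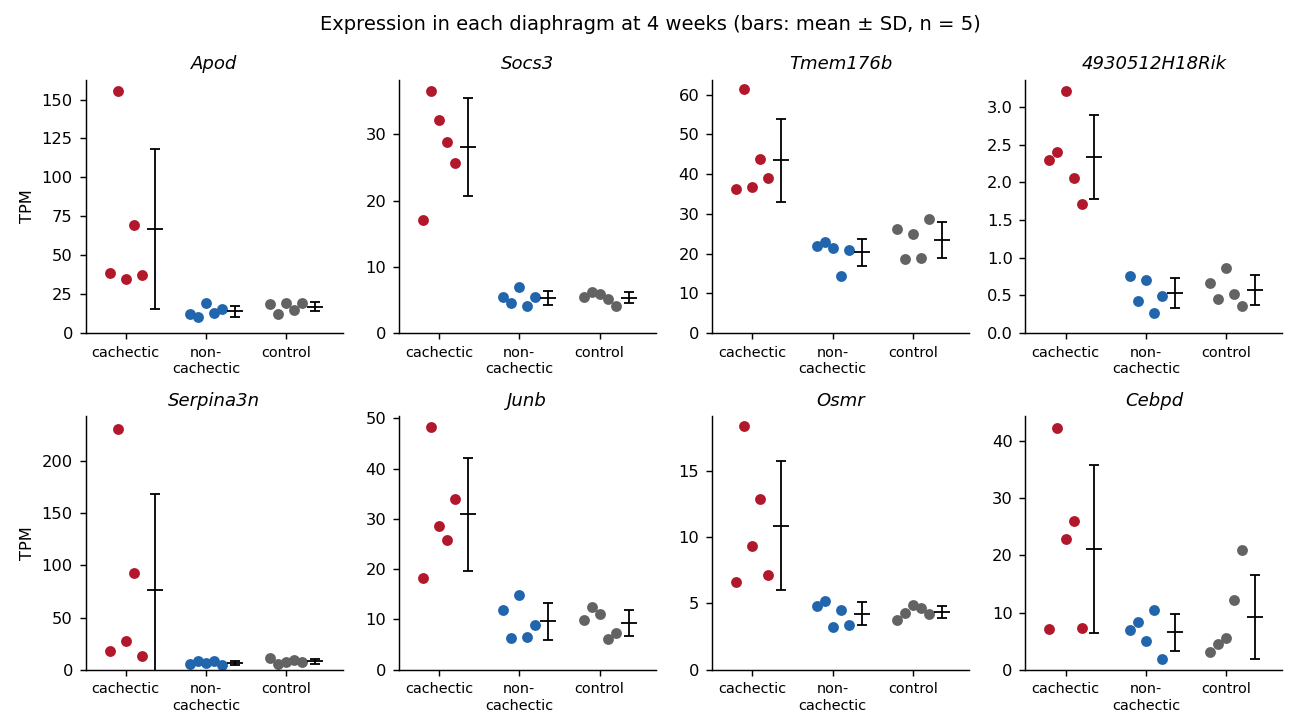
TPM of 8 genes (y axis, linear) in each mouse of 4 weeks (points), with the mean ± SD of the 5 mice of each group at the right of its points; the lower end of the cachectic Serpina3n bar is cut at 0. The 4 called genes are in the upper row, and in every panel except Cebpd the cachectic mice lie above all non-cachectic mice.

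Because Socs3 is a known STAT3 target, the promoters of the interleukin-6 family genes were read for STAT letters. The windows, from RefSeq (GRCm38.p6), hold 250 bases before to 50 bases after each start, and TTCNNNGAA, which reads the same on either strand, was searched. Of the 9 genes of the list described next that were higher at an unadjusted p under 0.05, 7 had a window and 1, Socs3, held a match, at 154 bases before the start. Of all 32851 windows, 8.30% hold it. The 250 bases before this start (chr11:117969367-117969616, minus strand) are given with the match in capitals. They lie inside the longer gene that GENCODE annotates.
Socs3: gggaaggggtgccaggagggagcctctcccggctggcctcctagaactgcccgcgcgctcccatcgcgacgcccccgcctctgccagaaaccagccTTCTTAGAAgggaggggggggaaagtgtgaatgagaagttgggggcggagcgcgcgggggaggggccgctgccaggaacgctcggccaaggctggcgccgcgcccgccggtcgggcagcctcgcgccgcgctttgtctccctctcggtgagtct

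The interleukin-6 family and STAT3 path was described by its ligands, receptors, transducers and targets. Of 31 listed genes, 26 were high enough to be tested. At an unadjusted p under 0.05, 9 were higher and 0 lower, where 3.7% of all genes were higher and 1.44% lower, 17 did not pass, and 1, Socs3, was called. The median log2 fold change over the 26 was 0.287, against 0.064 over all genes.

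By role, 0 of 3 tested ligands, 1 of 6 receptors, 1 of 7 signal transducers and 7 of 10 target genes were higher at that threshold. The receptor was Osmr, which binds oncostatin M together with gp130. It was at 6.65, 18.3, 9.30, 12.9 and 7.15 TPM in the cachectic mice and 4.81, 5.22, 3.25, 4.48 and 3.34 in the non-cachectic mice, without overlap (log2 fold change 1.11, SE 0.261, adjusted p = 0.083, and 1.15e-05 without the 4 sparse libraries). The interleukin-6 receptor Il6ra was at 6.59, 22.2, 11.8, 24.7 and 4.49 TPM against 6.00, 10.4, 4.46, 9.53 and 3.61, and these values overlapped (unadjusted p = 0.11 by limma). The shared chain Il6st was at 51.5 ± 9.69 TPM against 37.4 ± 1.64 (unadjusted p = 0.192 by limma).

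The transducer was Stat3 itself. Its TPM was 28.4, 47.3, 33.2, 43.8 and 32.2 in the cachectic mice, 22.1, 17.9, 18.7, 14.7 and 17.4 in the non-cachectic mice and 18.9, 20.4, 18.5, 18.8 and 16.1 in the controls. No cachectic value overlapped the others (log2 fold change 0.97, SE 0.363, adjusted p = 0.648). The kinases Jak1, Jak2 and Tyk2 and the factors Stat5a and Stat5b had log2 fold changes from -0.25 to 0.14.

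Among the targets, Junb, a member of the AP-1 transcription factors, was at 18.2, 48.3, 28.6, 25.7 and 33.9 TPM in the cachectic mice, 11.9, 6.23, 14.8, 6.44 and 8.82 in the non-cachectic mice and 9.84, 12.4, 11.02, 6.03 and 7.22 in the controls. These groups did not overlap (log2 fold change 1.58, SE 0.374, adjusted p = 0.083, and 0.000318 without the 4 sparse libraries). Cebpd, a transcription factor of the acute phase, was at 7.07, 42.3, 22.9, 26.0 and 7.26 TPM against 6.93, 8.31, 5.03, 10.4 and 1.95. Cachectic replicates 1 and 5 stood inside the non-cachectic range and the other three above it, and the log2 fold change was 1.39 (adjusted p = 0.538). The mean TPM of Fos was 15.3 ± 9.65 against 6.30 ± 3.17, of Bcl3 4.596 ± 2.57 against 1.86 ± 0.482, of Myc 4.43 ± 2.51 against 2.05 ± 0.532 and of the kinase Pim1 10.9 ± 2.92 against 6.56 ± 1.93. Of the targets not past the threshold, Cebpb and Cish had positive and Socs2 a negative log2 fold change (0.54, 0.64 and -0.088).

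Acute phase proteins, secreted chiefly by the liver in inflammation but also by muscle, differed for a few members. Of 20 genes tested, 3 were higher at an unadjusted p under 0.05 (Serpina3n, Lcn2 and Lrg1), 0 were lower, and the median log2 fold change was 0.106. Over all genes 3.7% were higher and 1.44% lower, with a median of 0.064. Serpina3n, a serine protease inhibitor, had the largest positive log2 fold change of the 42 genes, 2.58 (SE 0.695). Its TPM was 18.1, 231, 27.5, 93.0 and 13.2 in the cachectic mice, 5.56, 8.70, 6.10, 8.29 and 4.32 in the non-cachectic mice and 11.6, 5.29, 7.37, 9.20 and 7.59 in the controls. Although the groups did not overlap, the cachectic mice ranged over more than 10-fold, with replicates 2 and 4 far above the rest, and the adjusted p was 0.201 (0.0114 without the 4 sparse libraries). Reads of the Serpina3 genes may be shared between these near-identical copies.

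Lcn2, the iron-siderophore carrier lipocalin 2, was at 3.40, 31.4, 4.19, 6.61 and 4.12 TPM against 2.14, 4.61, 2.03, 4.81 and 2.43, and a single cachectic mouse, replicate 2, was far above the others (unadjusted p = 0.0293 by limma). Lrg1, a secreted leucine-rich glycoprotein, was at 32.4, 92.3, 44.6, 59.0 and 41.0 TPM against 29.4, 36.04, 25.7, 27.0 and 21.8 (unadjusted p = 0.0484 by limma). For the serum amyloid gene Saa1, cachectic replicates 2 and 4 were at 6.01 and 14.2 TPM, the other three at 0.258 to 0.603 and the non-cachectic mice at 0.473 TPM or less. Haptoglobin, Hp, was at 3.87, 242, 30.6, 65.4 and 8.17 TPM against 7.28, 8.50, 19.2, 16.1 and 5.55, and control mice reached 54.9 TPM.

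Markers of liver tissue were present in these diaphragms. All 12 liver genes had a negative log2 fold change in cachectic versus non-cachectic mice (median -0.858; 34.1% of all genes were negative), 0 of them past an unadjusted p of 0.05, and their sum was 46.8 to 184 TPM in cachectic, 57.0 to 327 in non-cachectic and 239 to 2128 in control mice. Their part in the acute phase values was not tested. With the mean of these genes as a covariate 4 genes were called, as without it. Of the acute phase genes 0 were called without the covariate, so this count does not bear on them.

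Metallothioneins, small proteins that bind zinc and other metals and are induced by metals, glucocorticoids and STAT3, differed widely between the cachectic mice. Mt2 was at 28.6, 587, 39.9, 128 and 15.2 TPM in the cachectic mice, 14.7, 16.7, 11.4, 13.6 and 8.997 in the non-cachectic mice and 14.1, 14.0, 12.9, 25.2 and 27.7 in the controls. Replicate 5 stood inside the non-cachectic range and replicate 2 far above all other mice. The log2 fold change was 2.31 (SE 0.701, adjusted p = 0.337, and 0.0176 without the 4 sparse libraries). Mt1 was at 104, 806, 160.1, 332 and 69.8 TPM against 91.2, 109, 78.3, 86.1 and 59.9, with the same order of the cachectic mice (log2 fold change 1.25, adjusted p = 0.614). Without cachectic replicate 2 the log2 fold change was 1.53 for Mt2 and 0.74 for Mt1. Of the 14 genes of metallothioneins, zinc importers and exporters and the zinc sensor, these 2 were higher at an unadjusted p under 0.05 and 0 were lower. The shares over all genes were 3.7% higher and 1.44% lower.

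The 250 bases before the RefSeq starts of both genes are shown because metal response elements are a known route of their induction by metals. Capitals mark TGCACNC or TGCGCNC on either strand, which 12.6% and 15.4% of all windows hold. The first lies at chr8:94178839-94179088 and the second at chr8:94172368-94172617, both on the plus strand.
Mt1: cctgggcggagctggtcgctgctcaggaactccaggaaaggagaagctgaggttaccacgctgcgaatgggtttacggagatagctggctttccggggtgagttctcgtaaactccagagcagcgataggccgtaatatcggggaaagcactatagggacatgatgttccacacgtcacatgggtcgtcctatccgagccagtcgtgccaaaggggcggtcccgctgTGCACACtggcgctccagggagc
Mt2: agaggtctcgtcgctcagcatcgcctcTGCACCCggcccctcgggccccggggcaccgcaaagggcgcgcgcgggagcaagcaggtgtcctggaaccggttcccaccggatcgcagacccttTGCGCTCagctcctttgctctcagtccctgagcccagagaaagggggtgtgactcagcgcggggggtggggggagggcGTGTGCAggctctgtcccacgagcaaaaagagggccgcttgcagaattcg
The Mt1 bases hold 1 match and the Mt2 bases 3. The shares above refer to full windows, which reach 50 bases past the start. There Mt1 holds 2 matches of the first spelling and 1 of the second, and Mt2 2 of each. Of the windows of genes tested, 12.96% hold the first spelling and 25.15% the second.

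Of 20 glucocorticoid targets, 4 were higher at an unadjusted p under 0.05 (Mt2, Cebpd, Mt1 and Lcn2), 0 were lower, 16 did not pass and none was called. At that threshold 3.7% of all genes were higher and 1.44% lower. With the receptor Nr3c1 and the enzyme Hsd11b1 added, 21 of 22 genes had a positive log2 fold change, against 65.9% of all genes, with a median of 0.565. Groups that did not overlap were found for 0 of the 22, against 5.52% of all genes higher and 0.906% lower. Fkbp5, a chaperone partner of the glucocorticoid receptor and a classical target, was at 15.3, 114, 18.1, 52.7 and 7.18 TPM in the cachectic mice, 13.0, 33.0, 4.80, 31.2 and 4.70 in the non-cachectic mice and 5.72, 5.22, 19.0, 26.3 and 42.8 in the controls. The values of the groups overlapped (log2 fold change 0.99, SE 0.708, and 0.48 without cachectic replicate 2). The receptor gene Nr3c1 was at 31.1 ± 3.75 TPM against 32.2 ± 2.17 (log2 fold change -0.054, which turned positive, at 0.020, with array quality weights). The clock genes, which share Per1 with these targets, had 0 of 19 past an unadjusted p of 0.05 in either direction and a median of 0.258. The hour at which the muscles were taken is not given in the sources used here.

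**Figure D3:**
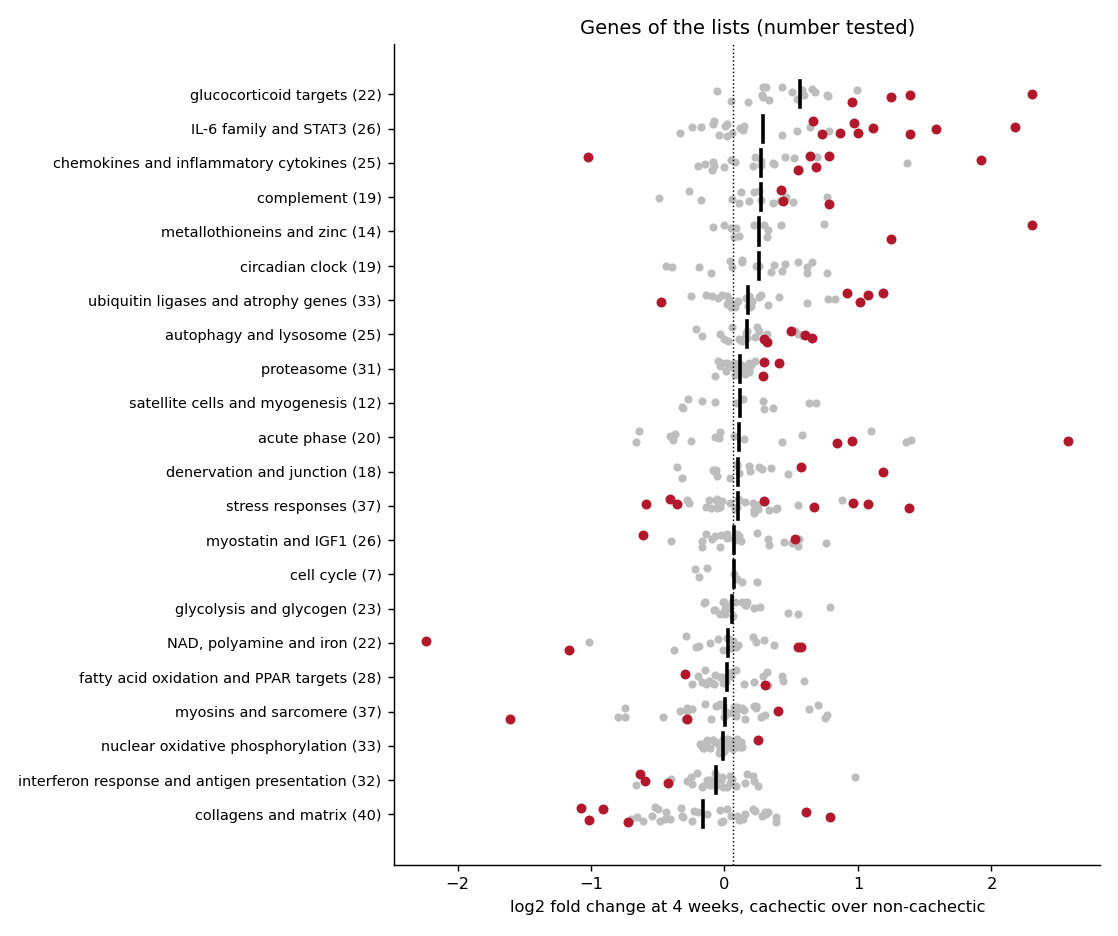
Log2 fold change at 4 weeks (x axis) of every tested gene in 22 gene lists (rows, with the number of genes tested), cachectic over non-cachectic. Red points passed an unadjusted limma p under 0.05, gray points did not, black bars are the medians of the lists and the dotted line is the median of all genes, 0.064. Glucocorticoid targets (median 0.565) and the interleukin-6 family (0.287) stand at the top and collagens and matrix (-0.164) at the bottom.

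Among the genes of muscle atrophy, both classical ubiquitin ligases were higher in the cachectic mice but not past the adjusted threshold. Fbxo32 was at 172, 353, 171, 145 and 137 TPM in the cachectic mice, 78.7, 74.8, 117, 95.8 and 126 in the non-cachectic mice and 152, 134, 97.3, 102 and 87.0 in the controls. Trim63 was at 158, 351, 149, 176 and 148 TPM in the cachectic mice, 91.3, 61.4, 146, 67.9 and 112 in the non-cachectic mice and 141, 158, 85.3, 81.4 and 85.6 in the controls. The cachectic mice lay above all non-cachectic mice for both genes, and replicate 2 was at more than 350 TPM while the other four cachectic mice lay between 137 and 176 TPM. Control mice reached 152 and 158 TPM, inside the cachectic range. The log2 fold changes were 0.92 for Fbxo32 (adjusted p = 0.93) and 1.01 for Trim63 (adjusted p = 0.856), and without replicate 2 that of Fbxo32 was 0.68 and that of Trim63 0.78.

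Over the 33 atrophy genes, 4 were higher and 1 lower at an unadjusted p under 0.05, with 27 positive and a median of 0.173. For all genes the shares were 3.7% higher, 1.44% lower and 65.9% positive, with a median of 0.064. Gadd45a, a growth arrest and stress gene, was at 33.6, 42.5, 22.02, 30.2 and 17.1 TPM against 11.6, 11.6, 9.31, 13.7 and 12.3, without overlap (log2 fold change 1.19, adjusted p = 0.252). Eif4ebp1, which represses translation when mTOR is inactive, was at 118, 313, 131, 234 and 101 TPM against 90.5, 81.4, 69.4, 80.9 and 65.8, also without overlap (log2 fold change 1.07, adjusted p = 0.136). Fbxl22, a sarcomeric F-box protein, was the lower gene, at 1.45 ± 0.689 against 2.31 ± 0.294 TPM. The transcription factors Foxo1 and Foxo3 had log2 fold changes of 0.082 and 0.41 and the growth inhibitor Mstn of 0.017, and both Foxo1 and Mstn turned negative with quantile normalization, to -0.0061 and -0.068.

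Proteasome and autophagy genes differed by small amounts, and none was called. At an unadjusted p under 0.05, 3.7% of all genes were higher and 1.44% lower, and 65.9% had a positive log2 fold change (median 0.064). Of 31 proteasome genes, 3 were higher (Psmc1, Psmd4 and Psma7), 0 lower and 27 positive, with a median of 0.115. Psmc1, an ATPase of the cap, was at 152, 198, 146, 159.7 and 135 TPM against 134, 130.1, 126, 125 and 127, which did not overlap although the log2 fold change was 0.29 (adjusted p = 0.493). Of 25 autophagy and lysosome genes, 5 were higher (Map1lc3b, Sqstm1, Bnip3l, Ctsl and Lamp2), 0 lower and 21 positive, with a median of 0.168. Map1lc3b, the LC3B protein of autophagosomes, was at 109.6, 191, 119, 149.7 and 107 TPM against 87.4, 88.1, 76.0, 83.2 and 82.0, without overlap (log2 fold change 0.66, SE 0.191, adjusted p = 0.283). Ctsl, the lysosomal protease cathepsin L, was at 186, 416, 176, 220.4 and 192 TPM against 155, 159, 152, 168 and 160.4, and replicate 2 was again the highest.

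Cytokine genes went in both directions. Of 34 chemokine and cytokine genes, 25 could be tested, 5 were higher (Ccl8, Cxcl1, Il33, Il1r1 and Tnfrsf1a) and 1 lower (Tnfrsf12a), with a median of 0.277. At the same unadjusted p under 0.05, 3.7% of all genes were higher and 1.44% lower, with a median of 0.064. Ccl8, a chemokine that attracts monocytes, was at 7.49, 12.1, 4.49, 11.3 and 5.73 TPM in the cachectic mice, 1.11, 1.24, 1.87, 0.790 and 1.63 in the non-cachectic mice and 0.968, 1.05, 1.17, 1.12 and 1.06 in the controls. No group overlapped the cachectic one, and the log2 fold change was 1.92 (SE 0.637, adjusted p = 0.462, and 0.0217 without the 4 sparse libraries). Il1r1, the interleukin-1 receptor, was at 3.70, 5.28, 3.69, 5.27 and 4.35 TPM against 2.68, 2.08, 3.08, 2.09 and 2.52, without overlap (log2 fold change 0.64, adjusted p = 0.252). Tnfrsf12a, the TWEAK receptor, was at 16.4 ± 5.45 TPM against 37.2 ± 19.2 (unadjusted p = 0.0173 by limma).

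Of 19 complement genes, 3 were higher (Serping1, C6 and C5ar1), 0 lower and 16 positive, with a median of 0.275. Against the controls, the median was -0.024 in cachectic and -0.368 in non-cachectic mice. In cachectic mice against controls, the log2 fold changes of Serping1, C6 and C5ar1 were 0.62, 0.27 and -0.086. By comparison, 3.7% of all genes were higher and 1.44% lower at an unadjusted p under 0.05, and 65.9% were positive. Serping1, the inhibitor of C1, was at 163, 264, 191, 166 and 203 TPM against 116, 126, 113, 92.0 and 120.2, without overlap (log2 fold change 0.78, adjusted p = 0.237). In contrast, of 32 interferon and antigen presentation genes 0 were higher and 3 lower, the guanylate-binding proteins Gbp4, Gbp3 and Gbp7, with a median of -0.066. Gbp4 was at 3.06 ± 1.12 TPM against 5.18 ± 0.916 and at 3.58 ± 1.21 in the controls.

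Among other genes of the looser rule were receptor chains of the hematopoietic cytokines. Csf2rb, the chain shared by the receptors of interleukin-3, interleukin-5 and GM-CSF, was at 3.45, 8.94, 2.75, 7.64 and 4.16 TPM against 1.79, 1.90, 2.14, 0.985 and 1.43, and its paralog Csf2rb2 at 1.95, 6.46, 1.44, 4.00 and 2.33 against 0.703, 0.635, 1.25, 0.514 and 0.808. Neither overlapped, and the log2 fold changes were 1.18 (adjusted p = 0.294) and 1.14 (adjusted p = 0.145), but these near-identical genes may share reads. Against the controls they were 0.65 and 0.91 in cachectic mice and -0.53 and -0.23 in non-cachectic mice. Scgb3a1, a small secreted protein of airway epithelium, was at 0.820, 4.13, 3.14, 3.56 and 1.75 TPM against 0.774, 0.163, 0.240, 0.422 and 0.738. Atp9a, a P4-type ATPase, was at 67.8, 87.7, 71.9, 80.0 and 58.4 TPM against 31.7, 31.7, 28.3, 22.5 and 23.1. The lowest cachectic mouse lay above the highest non-cachectic mouse for both genes (for Atp9a, log2 fold change 1.38, SE 0.362, adjusted p = 0.155, and 1.19e-08 without the 4 sparse libraries). Galnt15, an enzyme of O-linked glycosylation, was at 35.9 ± 16.5 against 14.6 ± 2.61 TPM (log2 fold change 1.17), and Tmem252 at 0.418, 12.6, 0.720, 4.63 and 0.467 against 0.188, 0.337, 0.350, 0.205 and 0.0996 TPM, where cachectic replicates 2 and 4 carried most of the difference (log2 fold change 1.32, and 0.78 without replicate 2). The other 13 higher genes of the looser rule, Col6a5 among them, had log2 fold changes from 1.01 to 1.60.

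No gene was called lower over all 62 mice. Nmrk2, the muscle form of nicotinamide riboside kinase in NAD synthesis, had the most negative log2 fold change of the 42 genes, -2.23 (SE 0.562, adjusted p = 0.136, and 0.00978 without the 4 sparse libraries). Its TPM was 34.5, 8.54, 89.4, 5.09 and 107 in the cachectic mice, 196, 110.2, 183, 77.5 and 145 in the non-cachectic mice and 111, 164, 94.1, 120.5 and 81.1 in the controls. Cachectic replicates 2 and 4 were the lowest of all 15 mice, whereas replicates 3 and 5 lay within the range of the other groups. Tfrc, the transferrin receptor, was at 20.9, 7.22, 10.8, 8.67 and 28.9 TPM against 43.3, 15.7, 54.9, 18.04 and 42.8 (log2 fold change -1.16, adjusted p = 0.523). Of the 22 genes of NAD, polyamine and iron metabolism, these 2 were lower at an unadjusted p under 0.05, and Sat1 and Steap4 were higher. The shares over all genes were 1.44% lower and 3.7% higher.

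Tceal7, a protein of the TCEAL family, was lower with little spread among the cachectic mice (chrX:136214779-136226100, plus strand). It was at 9.19, 10.2, 9.38, 8.59 and 11.5 TPM in the cachectic mice, 32.5, 22.2, 24.9, 16.3 and 28.7 in the non-cachectic mice and 14.2, 13.1, 10.98, 23.6 and 24.3 in the controls. All cachectic mice were below every non-cachectic mouse, while the lowest control mouse, at 10.98 TPM, lay inside the cachectic range. The log2 fold change was -1.24 (SE 0.276, adjusted p = 0.083, and 0.00569 without the 4 sparse libraries). At 6 weeks its log2 fold change was 0.14 and at 8 weeks 0.43. The change of the difference from 4 to 6 weeks had an unadjusted p of 0.000881 by limma, which did not pass after adjustment.

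Apln, which encodes the peptide apelin, was at 2.73, 0.784, 1.36, 1.04 and 3.00 TPM against 5.74, 4.38, 5.58, 3.03 and 5.92, without overlap (log2 fold change -1.14, SE 0.263, adjusted p = 0.083). Lgr6, a receptor for R-spondins, was at 5.92, 2.71, 3.26, 2.39 and 5.71 TPM against 13.0, 9.18, 14.5, 7.03 and 8.58, also without overlap (log2 fold change -1.22, adjusted p = 0.319). Prnd, which encodes the prion-like protein doppel, was at 1.64 ± 0.869 TPM in non-cachectic mice and at 0.342 TPM or less in every cachectic mouse (log2 fold change -1.17). Actc1, the cardiac alpha-actin that adult skeletal muscle keeps at a low level, was at 1.42, 0.416, 3.93, 1.32 and 1.94 TPM against 8.36, 8.65, 5.41, 9.14 and 4.18, and the highest cachectic mouse was below the lowest non-cachectic mouse (log2 fold change -1.61, adjusted p = 0.327). The 2 remaining lower genes of the looser rule, named after their values were seen, were Tgtp2, an interferon-induced GTPase, and Ccnd1, cyclin D1, with log2 fold changes of -1.11 and -1.07.

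The contractile genes showed no common shift. Of 37 sarcomere genes, 1 was higher (Myoz1), 2 lower (Actc1 and Myl1), and the median was 0.004. At an unadjusted p under 0.05, 3.7% of all genes were higher and 1.44% lower. Among the myosin heavy chains, Myh1, of type 2x fibers, was at 6579, 10654, 7001, 8345 and 6336 TPM in the cachectic mice and 4515, 4572, 4463, 5479 and 3782 in the non-cachectic mice. These did not overlap, but the log2 fold change of 0.75 had an SE of 0.439 (unadjusted p = 0.0925 by limma). Myh2, of type 2a fibers, was at 2814 ± 482 against 3408 ± 459.7 TPM, Myh7, of type 1 fibers, at 418 ± 56.2 against 356 ± 56.7, and Myh4, of type 2b fibers, at 480.2 ± 513 against 219.8 ± 153. Fibcd1, a transmembrane protein from which a secreted fragment with a fibrinogen domain is cleaved, was at 0.0308 TPM or less in all 15 mice. It could not be tested.

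Of the 12 collagen genes listed, 3 were lower at an unadjusted p under 0.05 (1.44% of all genes were), 9 did not pass and none was called. All 12 had a negative log2 fold change, as 34.1% of all genes did, with a median of -0.579. Collagen genes outside the list did not all share this sign, and Col6a5, named after its values were seen, was higher by the looser rule (log2 fold change 1.01, unadjusted p = 0.00543 by limma). Col15a1, of the basement membrane zone, was at 19.4 ± 12.9 TPM against 34.6 ± 8.99, Col6a2 at 19.5 ± 11.2 against 33.9 ± 6.68 and Col6a3 at 9.54 ± 4.29 against 15.4 ± 2.26. The microfibril protein Mfap4 was at 23.8, 15.0, 29.6, 7.14 and 38.9 TPM against 41.2, 43.8, 52.4, 33.4 and 46.4 (log2 fold change -1.08, adjusted p = 0.707). The crosslinking enzyme Lox and thrombospondin 2 (Thbs2) were higher at an unadjusted p under 0.05, with log2 fold changes of 0.79 and 0.61. Over the 40 matrix genes this makes 2 higher and 4 lower, and a median of -0.164, while the markers of fibro-adipogenic cells, a main source of muscle matrix, had 1 of 10 higher, 0 lower and a median of -0.07.

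Stress and metabolic genes differed singly. Of 37 stress genes, 5 were higher (Nqo1, Eif4ebp1, Chac1, Hmox1 and Sod1) and 3 lower (Hsph1, Cryab and Ddit3). Among all genes 3.7% were higher and 1.44% lower at an unadjusted p under 0.05. Nqo1, a quinone reductase induced by Nrf2, was at 100.1, 79.1, 74.6, 72.8 and 81.7 TPM against 42.7, 42.7, 46.1, 54.2 and 72.2, without overlap (log2 fold change 0.67, adjusted p = 0.083). Chac1, a glutathione-degrading enzyme of the integrated stress response, was at 46.1, 52.6, 65.2, 24.6 and 57.9 TPM against 27.1, 8.34, 23.4, 16.7 and 17.4 (log2 fold change 1.38, adjusted p = 0.462). In fatty acid oxidation 1 of 28 genes was higher (Cd36) and 1 lower (Fabp3), in oxidative phosphorylation 1 of 33 higher (Cox6a2) and 0 lower, and in glycolysis and glycogen 0 of 23 in either direction. In myostatin and IGF1 signaling 1 of 26 was higher (the activin chain Inhbb) and 1 lower (Irs1), among denervation and junction genes 2 of 18 were higher (Runx1 and Gadd45a) and 0 lower, and among 12 genes of satellite cells and myogenesis and 7 of the cell cycle 0 were.

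Of the other cell types that a diaphragm sample can hold, few markers differed at an unadjusted p under 0.05. Over all genes 3.7% were higher and 1.44% lower. In the macrophage list 2 of 9 markers tested were higher (Mrc1 and Cd163), with a median log2 fold change of 0.219. Against the controls, the median of that list was -0.176 in cachectic and -0.419 in non-cachectic mice. In the endothelial list 1 of 10 was higher (Esam) and 1 lower (Aplnr, the receptor of apelin). In the nerve and the cartilage lists 1 each was lower (S100b and Chad), as was Mb in the skeletal muscle list. Of the neutrophil, T cell, B cell, NK cell, erythroid, smooth muscle, mesothelium, white and brown adipocyte, keratinocyte, pancreas and melanocyte lists, 0 of the markers tested passed an unadjusted p of 0.05. Only 4 of 10 neutrophil, 3 of 10 T cell, 3 of 8 NK cell and 5 of 8 erythroid markers were high enough to be tested. The same held for 4 of 8 keratinocyte, 1 of 8 pancreas and 2 of 7 melanocyte markers. B cell markers varied most, with sums of 8.11 to 1279 TPM among the cachectic mice and 22.5 to 359 among the non-cachectic mice. In bulk tissue, more cells of a type and more RNA per cell cannot be told apart, and the part of these cells in the results was not tested.

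The control mice were compared with both tumor groups. Non-cachectic versus control mice gave 0 called genes at 4 weeks (0.0%; 68 genes at an unadjusted p under 0.05 by limma, 16 higher and 52 lower in non-cachectic mice, and 0 under Dunn's test after adjustment). Cachectic versus control mice, a comparison that shares the cachectic mice with the main one, gave 2 called genes (0.0147%), Socs3 with a log2 fold change of 2.16 (adjusted p = 0.00646) and Apod with 1.69 (adjusted p = 0.0118). Of the called genes, Tmem176b was 0.85 and 4930512H18Rik 1.08 above controls (adjusted p = 0.0894 and 0.0635). Non-cachectic mice differed from controls by -0.26, -0.013, -0.20 and -0.041 on the log2 scale for Apod, Socs3, Tmem176b and 4930512H18Rik. Without cachectic replicate 2, 0 genes were called against controls, and without cachectic replicate 1, 9 were.

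**Figure D4:**
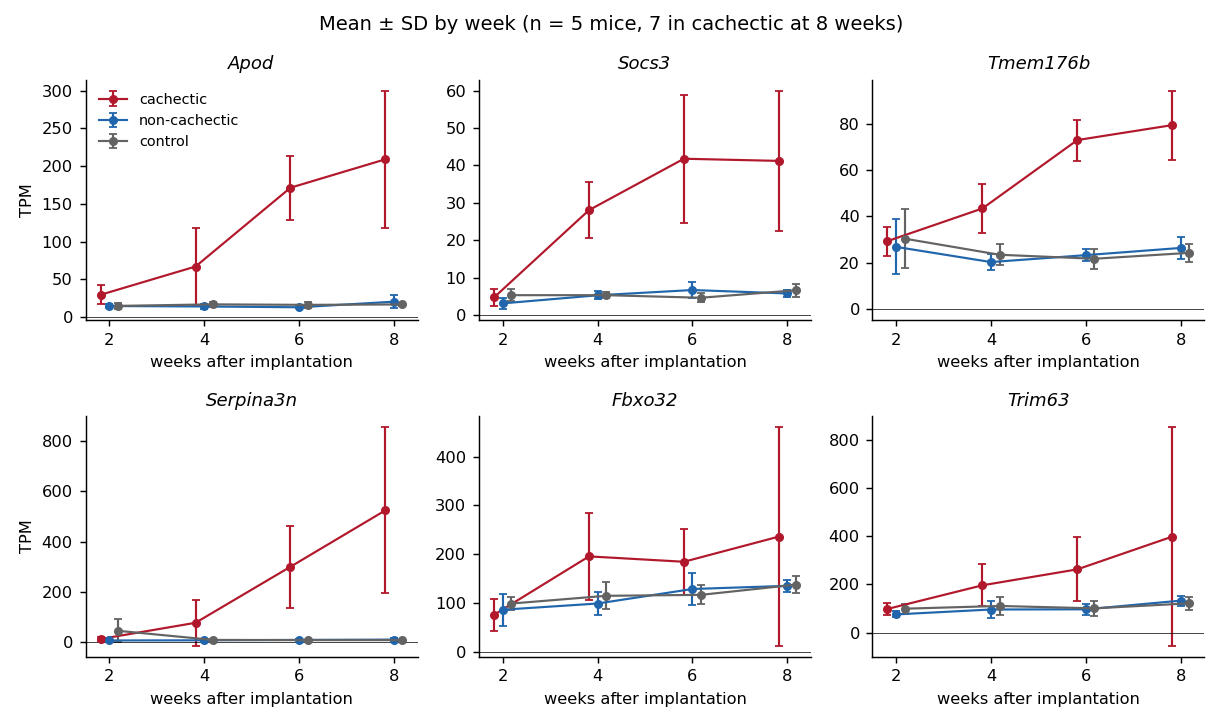
Mean ± SD of the TPM (y axis, linear) of 6 genes by week after implantation (x axis) in cachectic, non-cachectic and control mice, n = 5 mice at each point and 7 in cachectic mice at 8 weeks. In cachectic mice the mean at 4 weeks lay below that at 6 weeks for Socs3 (28.1 against 41.8 TPM), Apod (67.0 against 171) and Serpina3n (76.5 against 299.8).

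The mice of other weeks, which are separate animals, show when these differences were present. At 2 weeks the log2 fold changes of Apod, Socs3, Tmem176b and 4930512H18Rik were 0.90, 0.46, 0.19 and 0.23, and 0 genes were called then (by limma, 190 higher and 1519 lower at an unadjusted p under 0.05; 2 of its libraries in the cachectic and 1 in the non-cachectic group are sparse). At 6 weeks they were 3.60, 2.43, 1.60 and 0.82, and at 8 weeks 3.19, 2.32, 1.55 and 1.14. The Apod difference was larger at 6 than at 4 weeks by 1.65 (unadjusted p = 0.000482 by limma), and that of Socs3 by 0.26 (unadjusted p = 0.634). Across all genes, 0 passed the adjusted test for a change of the difference from 4 to 6 weeks (0.0%; 249 at an unadjusted p under 0.05).

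The looser rule gave 33 higher genes at 4 weeks, and 33 of them had the same sign at 6 weeks and 24 were called there, and at 8 weeks 32 had the same sign and 24 were called. Of the 9 lower genes, 8 had the same sign at 6 weeks with 6 called, and 8 at 8 weeks with 7 called. At 2 weeks 18 of the 33 and 6 of the 9 had the same sign. The shares of all genes called were 1.53% at 6 weeks and 2.53% at 8 weeks.

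Read in the other direction, most genes called at 6 weeks already pointed the same way at 4 weeks. The 6-week comparison of the same tumors called 155 genes higher and 53 lower. Of the 155, 154 had a positive log2 fold change at 4 weeks, where 65.9% of all genes did, and 90 of them passed an unadjusted p of 0.05. Of the 53, 50 had a negative one, where 34.1% of all genes did, and 28 passed. The median log2 fold change of the 155 was 0.727 at 4 weeks against 1.41 at 6 weeks, and that of the 53 was -0.71 against -1.38. Values at 6 weeks chose these genes, so their 6-week medians are a description. The 10 genes with the largest positive change at 6 weeks included Cxcl13, Itih4 and Serpina3m besides those named above. Their log2 fold changes at 4 weeks were 1.37, 1.10 and 0.58 (unadjusted p = 0.171, 0.237 and 0.454 by limma), and at 2 weeks -3.66, 1.18 and 0.79. Against the controls of 4 weeks they were -1.14, 0.15 and 0.044 in cachectic mice and -2.505, -0.95 and -0.54 in non-cachectic mice. Of the 5 with the largest negative one, Retnla had a value of -0.17 and Gm10146 of 0.35 at 4 weeks, and Retnla turned positive, at 0.0044, without cachectic replicate 4.

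The 5 cachectic mice of 4 weeks were not at the same level. The mean log2(TPM + 1) over the 155 genes was 3.08, 4.39, 3.32, 3.84 and 3.08 in cachectic replicates 1 to 5, between 2.62 and 2.92 in the non-cachectic mice and between 2.78 and 3.10 in the controls. Replicate 2 lay within the range of the cachectic mice at 6 weeks, 4.22 to 4.88, and held the highest value of its group in 135 of the 155 genes. Replicate 4 came next and held the highest value in 16. Replicates 1 and 5 were above every non-cachectic mouse but below the highest control mouse. For the 53 lower genes the same 2 mice had the lowest means, 2.43 and 2.69, against 3.22 to 3.54 in the other three and 3.46 to 3.79 in the non-cachectic mice.

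**Figure D5:**
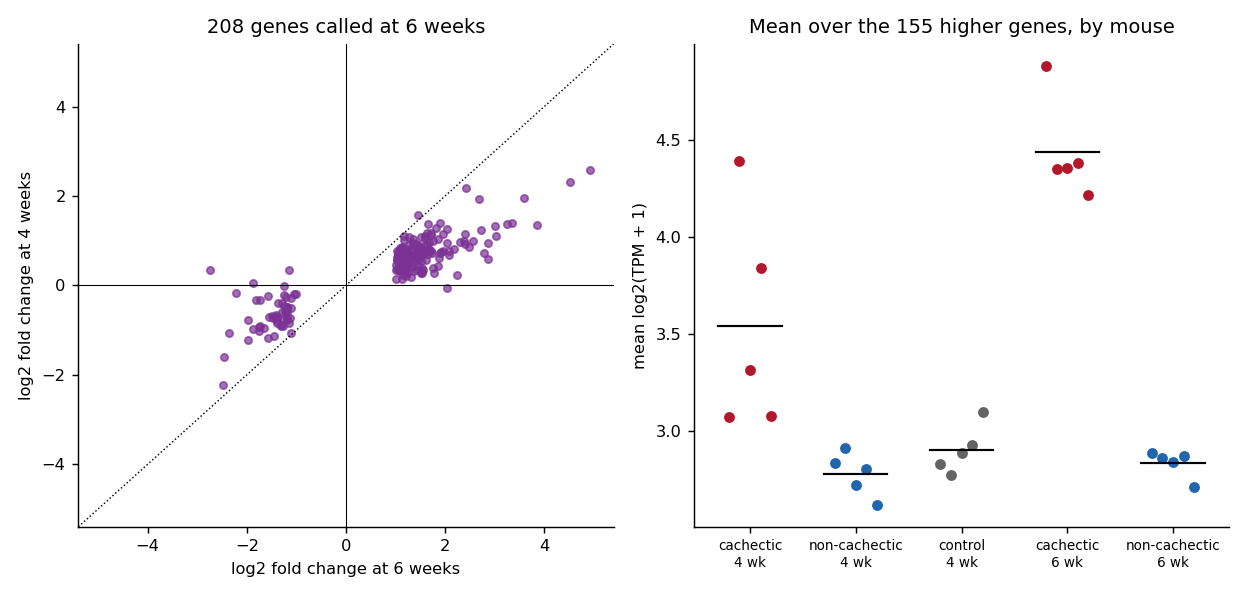
Left, log2 fold change (cachectic over non-cachectic) at 6 weeks (x axis) and 4 weeks (y axis) for the 208 genes called at 6 weeks, with a dotted line of equal values; 204 points lie in the quadrants of equal sign and most lie closer to 0 at 4 than at 6 weeks. Right, the mean log2(TPM + 1) over the 155 higher genes in each mouse (points) with the group mean (line), where cachectic replicate 2 at 4 weeks (4.39) reaches the 6-week range; the 6-week values chose the genes.

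The number of calls depended on single mice of both groups. Leaving out cachectic replicate 2, cachectic replicate 4 or non-cachectic replicate 4 left 2 called genes, Apod and Socs3, and the median-ratio and quantile scalings each gave 12, 11 higher and 1 lower. Without replicate 2, 298 genes passed an unadjusted p of 0.05, against 697 with all mice. The log2 fold change of Socs3 then was 2.07, and both Apod and Socs3 stayed called in every fit that left out 1 mouse of the 10. In a fit of these 10 mice alone the adjusted p of Apod was 0.0578 by limma, and by Dunn's test with Benjamini-Hochberg adjustment that of Apod, Socs3, Tmem176b and 4930512H18Rik was 0.379 each.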

How the data were processed

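RNA of 62 mouse diaphragms in 12 groups was sequenced on an Illumina NovaSeq as paired-end reads. The authors aligned the reads to mm10 in CLC Genomics Workbench and deposited TPM values for 47643 genes. The sample labels name a stranded mRNA kit and the study's methods a TruSeq RNA kit. The annotation release and the use of strand are not given in the sources used here. TPM keeps no read counts, so the depth of each library is unknown, and no counting interval was computed. All libraries sum to 1000000 TPM.

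Here, 13578 genes that reached 1 TPM in 5 or more libraries were tested on log2(TPM + 1) with limma 3.58.1 in R 4.3.3 (group means of all 12 groups, moderated variance with trend), with Benjamini-Hochberg adjustment over all genes tested, after the steps had been tested on simulated data. Fold changes are on that scale, which understates those of low genes. The study's own test was the Kruskal-Wallis test with Dunn's test, which was run as an alternative. Other alternatives were the pseudocount, the filter, scaling, array weights, a replicate block, fewer groups and libraries, a liver covariate and leaving out each mouse.

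The samples and gene lists were chosen with earlier results of these data known. Named genes were those called, up to 10 higher and 10 lower genes of largest change among the others that passed the looser rule without overlap, up to 3 genes of each list with the smallest p, the 10 largest positive and 5 largest negative changes among the genes called at 6 weeks and a set of fixed genes. Other list members were named after their values were seen. A sign from 4 to 6 weeks compares separate mice. Python 3.11.15 and matplotlib 3.10.9 drew the plots. Promoters came from RefSeq and gene positions from GENCODE.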

Additional observations from a re-analysis of the deposited data

Results flagged for a closer look

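In 3 of 108 groups of 5 mice (2.78%), a single mouse stood apart from its group by Dixon's test, where chance alone does so in about 1 in 20 groups. Tmem176b was at 14.3 TPM in non-cachectic replicate 4, its lowest mouse, against 20.9 to 23.0 in the other four. Fbxo32 was at 353 TPM in cachectic replicate 2, its highest mouse, against 137 to 172 in the other four, and Trim63 was at 351 TPM in the same mouse against 148 to 176.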

How the results depend on the processing

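Counts of called genes differed between settings. In cachectic versus non-cachectic mice (4 genes) they were 12 with median-ratio scaling or quantile normalization (11 higher and 1 lower in each), 30 with array weights (19 and 11; the weights stopped before convergence), 14 with only the groups compared, 32 with only the 3 groups of 4 weeks, 35 without the 4 sparse libraries and 0 with Dunn's test (1653 at an unadjusted p under 0.05). Against controls (2 genes) they were 4 with a pseudocount of 0.1, 11, 12, 42, 7, 29, 29 and 0 (1790 at an unadjusted p under 0.05 by Dunn's test) in the order of these settings. The change from 4 to 6 weeks gave 68 genes with array weights (52 and 16) and 0 in the other fits. Of genes called at 6 weeks, 339 of 344 kept their sign with the log2 ratio of mean TPM, and Dunn's test called none there. Leaving out 1 mouse at a time gave 2 to 6 genes against non-cachectic mice, 0 to 9 against controls (0 without cachectic replicate 2, 1 without cachectic replicate 4 or control replicate 2, 9 without cachectic replicate 1) and 128 to 215 of equal sign (128 of 131 without cachectic replicate 1 of 6 weeks). The cause was not tested.

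Replicate numbers did not pair the mice (correlations of same-numbered mice from -0.074 to 0.288), and with them as a replicate block 2 genes were called. Tmem176b and 4930512H18Rik were lost there. The block gave 2 genes against controls, 0 for non-cachectic versus control mice and 0 for the change from 4 to 6 weeks, as without it, and 181 in place of 208 at 6 weeks.

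Signs turned for Mstn (-0.0597 with median-ratio scaling, -0.0675 with quantile normalization, -0.3325 as a ratio of means, -0.3948 to 0.3488 leaving out 1 mouse), Foxo1 (-0.0061 with quantile normalization, -0.0467 with array weights, -0.0812 to 0.2333 leaving out 1 mouse), Nr3c1 (0.0196 with array weights) and Retnla (-0.2961 to 0.0044 leaving out 1 mouse). A TPM table sets no limit of detection, so a gene listed at 0 is not shown to be silent.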
